A study of Mus musculus with 6 samples.

Results

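The genes described here are 9 components of adrenergic and muscarinic signalling in the heart, chosen by name among the 54532 genes of the count table: the receptors Adrb1, Adra1a, Adra1b and Chrm2, the adenylyl cyclases Adcy5 and Adcy6, the receptor kinase Grk2 and the phosphodiesterases Pde3a and Pde4b. All 9 had enough counts to be tested. They were measured by RNA-seq of whole hearts from 3-month-old male mice on a C57BL/6 background, in 3 α1r/rα2s/s (resistant) hearts from mice 368, 369 and 370 and in 3 α1s/sα2s/s (sensitive) hearts from mice 379, 380 and 381. Sensitive mice carry amino acid substitutions that give the α1 isoform of Na/K-ATPase, the sodium pump, a high affinity for cardiotonic steroids (CTS) such as ouabain. Resistant mice have the natural rodent α1 of low affinity, and both genotypes carry a CTS-sensitive α2. The paper describes its controls as littermates, and those of the RNA-seq as age-matched. The labels give no litter. The substitutions are present in every cell of the body and are not visible in counts per gene, so the genotype of each heart rests on its label. The comparison is of sensitive with resistant hearts, gene by gene.

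Noradrenaline and adrenaline act on the β1 receptor (Adrb1), which couples through the stimulatory G protein to adenylyl cyclase, the enzyme that makes cyclic AMP (cAMP). cAMP activates protein kinase A, which phosphorylates calcium channels, phospholamban and other proteins and raises the rate and force of contraction. Acetylcholine acts on the M2 muscarinic receptor (Chrm2), which couples to the inhibitory G protein, opposes adenylyl cyclase and opens a potassium channel. The α1-adrenergic receptors (Adra1a and Adra1b) couple to phospholipase C and protein kinase C. Grk2 phosphorylates agonist-bound β receptors and so uncouples them, and phosphodiesterases degrade cAMP.

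To show the regulatory sequence of the receptors at the head of the opposing arms, whose levels are set against each other below, the RefSeq promoter windows of Adrb1 and Chrm2 are given from 250 bases before to 50 bases after the start of transcription (GRCm38.p6, chr19:56721867-56722166, plus strand, and chr6:36387834-36388133, plus strand). Capitals mark 3 motifs searched on both strands: TGACG, the core of the cAMP response element, CCAAT, and the GC box GGGCGG (written CCGCCC on the reverse strand, as CCAAT is written ATTGG).
Adrb1: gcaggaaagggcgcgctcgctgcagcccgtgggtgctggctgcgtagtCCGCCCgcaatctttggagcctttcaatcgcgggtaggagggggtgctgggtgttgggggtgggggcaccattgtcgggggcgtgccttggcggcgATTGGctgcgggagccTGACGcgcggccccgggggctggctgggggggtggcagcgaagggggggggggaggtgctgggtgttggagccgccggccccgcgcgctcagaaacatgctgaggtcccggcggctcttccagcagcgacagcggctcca
Chrm2: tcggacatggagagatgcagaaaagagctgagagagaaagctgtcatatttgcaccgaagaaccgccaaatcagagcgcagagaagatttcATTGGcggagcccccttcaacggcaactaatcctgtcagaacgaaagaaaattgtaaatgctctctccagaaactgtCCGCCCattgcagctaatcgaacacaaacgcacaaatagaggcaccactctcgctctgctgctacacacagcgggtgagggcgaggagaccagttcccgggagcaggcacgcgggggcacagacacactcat
The Adrb1 window held TGACG 90 bases, a reverse CCAAT 106 bases and a reverse GC box 202 bases before the start. In the Chrm2 window there was a reverse CCAAT 159 bases and a reverse GC box 82 bases before the start, and TGACG was not in it. Of 32851 RefSeq promoter windows of this length, 20.8% held TGACG, 37.4% held CCAAT and 35.7% held GGGCGG. Windows were at hand for 5 of the 9 genes, Adrb1, Adra1b, Chrm2, Adcy5 and Pde4b, and the other genes were Adra1a, Adcy6, Grk2 and Pde3a.

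Each heart had 19309312 to 20470065 counts, of which the 9 genes took 13554 to 15896. Mitochondrially encoded genes took 23.4% to 24.4% of the counts in resistant hearts and 25.0% to 26.0% in sensitive hearts. Within a genotype no pair of hearts agreed within counting error (chi-square 6.85 to 13.1 per gene), and each mouse was 1 replicate. Markers of cardiomyocytes summed to 45440 to 57180 CPM, counts scaled to library size, in resistant hearts and 50670 to 54450 CPM in sensitive hearts. Summed markers overlapped between genotypes for 12 of 13 cell types, and the other was the adipocyte list. Such sums follow their most abundant genes. Of 67 marker genes tested, 0 had an adjusted p under 0.05 by edgeR. At an unadjusted p under 0.05 by edgeR there were 15, with 3 higher and 12 lower, against 14.5% of all genes tested. Of the 12, 3 were among the 6 fibroblast markers. Log2 changes were below 0 for 5 of 5 macrophage and 5 of 5 pericyte markers. They were above 0 for 7 of 8 cardiomyocyte and 5 of 5 erythroid markers. The erythroid direction came from 1 heart, sensitive mouse 380, with 1856 CPM of Hbb-bs. In sensitive mice 379 and 381 each erythroid marker was below its level in resistant mice 368 and 369. In DESeq2 4 marker genes had an adjusted p under 0.05, named after their values were seen. These were Myl7, Col1a1, Acta2 and Mrc1 of the atrial, fibroblast, smooth muscle and macrophage lists, all lower. Other markers went the other way, with log2 changes above 0 for 2 of 8 atrial, 2 of 6 fibroblast and 1 of 5 smooth muscle markers. Macrophage markers summed to 117 to 174 CPM in resistant and 88.5 to 119 CPM in sensitive hearts. In whole tissue, a smaller share of cells of one type and less RNA per cell cannot be told apart.

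Of the 9 genes, Adcy6 was upregulated in α1s/sα2s/s hearts, by 1.35-fold, and it also had the highest mean level per length in both genotypes. The other 8 did not pass the test. Adrb1 had a mean fold of 1.25 with 1 resistant heart among the sensitive ones, Adra1a 1.13, and the remaining 6 lay between 0.984 and 1.05. At an adjusted p under 0.05 by edgeR (quasi-likelihood F test, Benjamini-Hochberg adjusted), 1 of 9 was higher and 0 were lower (1 and 0 in DESeq2, and 2 and 0 at an unadjusted p under 0.05). Across the 14866 genes tested, 1.44% were called by the same rule, 0.780% as higher and 0.659% as lower. In DESeq2 3.65% of 11038 genes were called, and 14.5% of genes had an unadjusted p under 0.05 in edgeR. The median log2 change of the 9 genes was 0.05, against -0.01 over all genes tested.

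**Figure D1:**
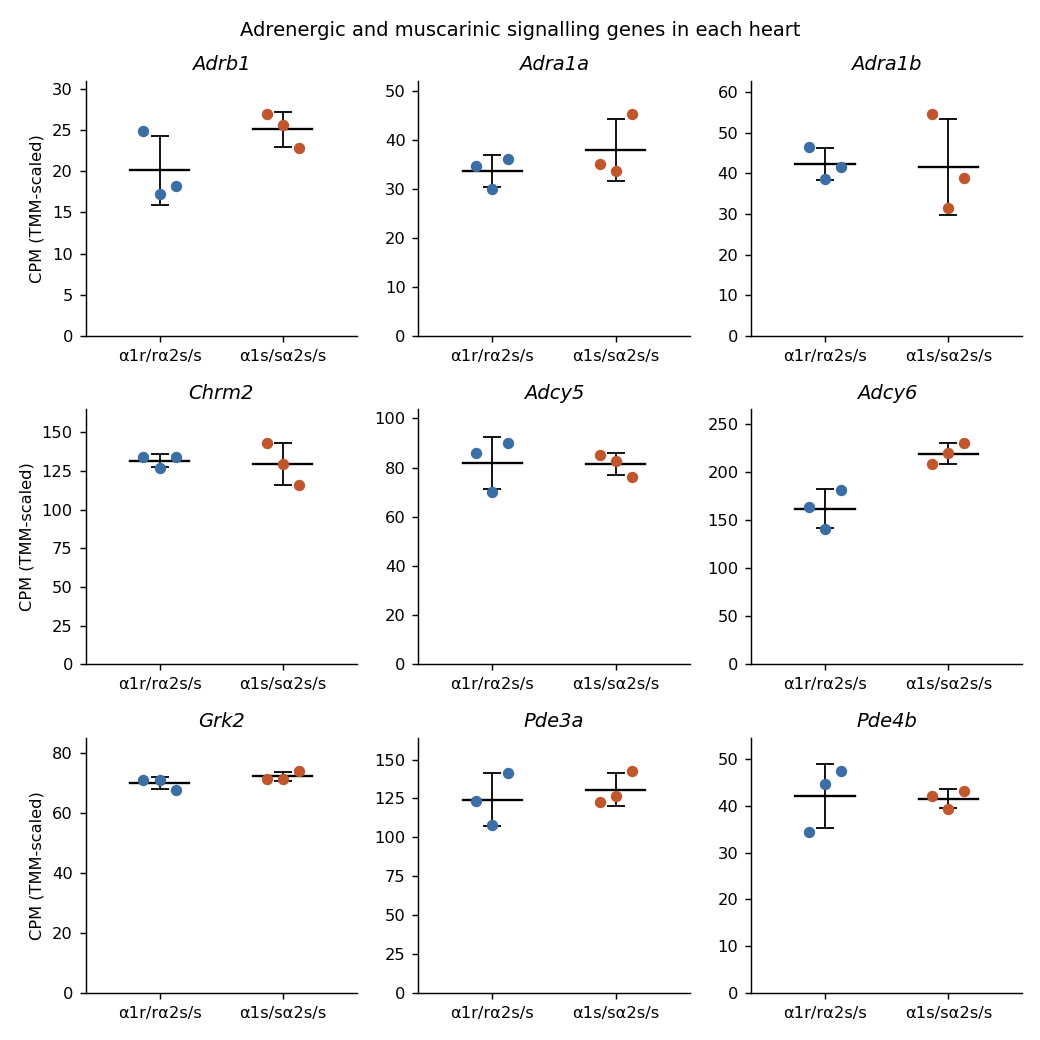
Level of each of the 9 genes in each heart, in CPM scaled by TMM (y axes start at 0), for resistant (α1r/rα2s/s, blue) and sensitive (α1s/sα2s/s, red) hearts. Points are hearts, and lines with bars are the mean and SD of 3 hearts. In the Adcy6 panel the sensitive hearts, at 208 to 231 CPM, sit above the resistant hearts, at 141 to 182 CPM.

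Among the receptors, Adrb1 (ENSMUSG00000035283, chromosome 19 of GRCm38, 56722372 to 56724862) was at 24.9, 17.3 and 18.2 CPM in resistant mice 368, 369 and 370 and at 26.9, 25.6 and 22.8 CPM in sensitive mice 379, 380 and 381. Resistant mouse 368 lay within the range of the sensitive hearts and the other resistant hearts lay below it. The means were 20.1 ± 4.16 and 25.1 ± 2.12 CPM (SD, n = 3), a log2 change of 0.32 (standard error, SE, 0.13, 95% interval 0.04 to 0.60). Its unadjusted p by edgeR was 0.0273 and its adjusted p 0.273. Without mouse 368 the log2 change was 0.51, with an adjusted p of 0.0814 in the same test. The count table gives Adrb1 a length of 2491 bases, while GENCODE M21 has another 891 exon bases for it, and reads there were not counted.

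Chrm2 (ENSMUSG00000045613, chromosome 6, 36388084 to 36528414), the M2 receptor, was at 134, 127 and 134 CPM in resistant hearts and at 143, 129 and 116 CPM in sensitive hearts. Sensitive hearts lay both above and below the resistant ones. The log2 change was -0.02 (SE 0.08, 95% interval -0.19 to 0.15, adjusted p = 0.925 by edgeR). Chrm2 shares 142 exon bases with 9330158H04Rik, a noncoding gene on the other strand with 164 to 296 counts per heart, and whether strand was used in counting is not given in the sources used here. Chrm2 made up 99.2% ± 0.224 of the summed level per length of the 5 muscarinic receptor genes in resistant hearts and 99.1% ± 0.0586 in sensitive hearts (SD, n = 3).

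The ratio of Adrb1 to Chrm2 within a heart does not depend on how libraries are scaled. On levels per length it was 0.452, 0.330 and 0.330 in resistant mice 368, 369 and 370, and 0.457, 0.482 and 0.477 in sensitive mice 379, 380 and 381. The genotypes did not overlap, but resistant mouse 368 and sensitive mouse 379 differed by less than the spread between resistant hearts. The means were 0.370 ± 0.0704 and 0.472 ± 0.0134 (SD, n = 3), given with no test. These are the receptors whose promoter windows are shown above, and any part of those sequences in the ratio was not tested.

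Neither α1-adrenergic receptor separated the genotypes. Adra1a (ENSMUSG00000045875, chromosome 14, 66635251 to 66771168) was at 34.8, 30.0 and 36.2 CPM in resistant hearts and 35.1, 33.6 and 45.3 CPM in sensitive hearts. Sensitive mouse 381 was the highest and the other 5 hearts were mixed. Over resistant hearts, the log2 change was 0.17 (SE 0.11, 95% interval -0.07 to 0.42, adjusted p = 0.518 by edgeR), and 0.03 without mouse 381. Adra1b (ENSMUSG00000050541, chromosome 11, 43774606 to 43901210) was at 46.6, 38.7 and 41.6 CPM in resistant hearts and 54.5, 31.5 and 38.9 CPM in sensitive hearts, so that the highest and the lowest heart were both sensitive. Its log2 change was -0.02 (SE 0.15, 95% interval -0.34 to 0.30, adjusted p = 0.965 by edgeR), the widest interval of the 9 genes. Without sensitive mouse 379 it was -0.26 and without sensitive mouse 380 it was 0.15.

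Adra1b was the more abundant α1 receptor per length in every heart. In CPM Adra1a was above Adra1b in sensitive mice 380 and 381, so the order there rests on the gene lengths of 8728 and 3382 bases. The ratio of Adra1a to Adra1b was 0.290, 0.301 and 0.338 in resistant hearts and 0.250, 0.414 and 0.451 in sensitive hearts, with sensitive mouse 379 below and the other sensitive hearts above the resistant range. Adra1b took 70.4% ± 1.20 of the summed level of the 3 α1 receptor genes in resistant and 68.3% ± 6.48 in sensitive hearts (SD, n = 3). Adrb3, the β3 receptor gene, also named in the adipocyte list, had at most 6 counts in any heart.

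Of the adenylyl cyclases, Adcy6 (ENSMUSG00000022994, chromosome 15, 98589973 to 98610076, minus strand) was at 164, 141 and 182 CPM in resistant mice 368, 369 and 370, from 2954 to 3625 counts. In sensitive mice 379, 380 and 381 it was at 208, 220 and 231 CPM, from 4179 to 4452 counts. Each sensitive heart was above each resistant heart. The means were 162 ± 20.6 and 220 ± 11.2 CPM (SD, n = 3), a log2 change of 0.44 (SE 0.09) or a fold of 1.35 (95% interval 1.19 to 1.54). The adjusted p was 0.0241 by edgeR (quasi-likelihood F test, Benjamini-Hochberg adjusted) and 9.70e-05 in DESeq2. With 1 heart left out the call was lost in 4 of 6 fits, at an adjusted p of 0.0799 without resistant mouse 368, 0.0716 without 369, 0.0678 without sensitive mouse 380 and 0.0713 without 381, and the log2 change stayed between 0.35 and 0.53. The antisense gene Gm29331, which shares 605 exon bases with Adcy6, had 0 counts in every heart.

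Adcy5 (ENSMUSG00000022840, chromosome 16, 35154877 to 35305738), the other cyclase of the cardiac myocyte, was at 85.8, 70.0 and 90.1 CPM in resistant hearts and 85.1, 82.8 and 76.4 CPM in sensitive hearts. The sensitive hearts lay inside the resistant range. Sensitive over resistant, this is a log2 change of -0.01 (SE 0.09, 95% interval -0.20 to 0.18, adjusted p = 0.972 by edgeR). The ratio of Adcy5 to Adcy6 per length was 0.494, 0.468 and 0.467 in resistant hearts and 0.385, 0.355 and 0.312 in sensitive hearts. The genotypes did not overlap, with means of 0.477 ± 0.0154 and 0.351 ± 0.0367 (SD, n = 3).

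Summed over the 10 adenylyl cyclase genes, the level was 51.8, 47.7 and 55.2 CPM per kb of gene length in resistant hearts and 57.2, 59.3 and 57.9 CPM per kb in sensitive hearts, again with no overlap. Adcy6 took 46.3% ± 2.55 of that sum in resistant and 55.7% ± 2.68 in sensitive hearts (SD, n = 3). The shares of Adcy4 and Adcy9 were lower in each sensitive heart than in each resistant heart, at 10.6% ± 1.28 and 7.87% ± 0.462 for Adcy4 and 11.5% ± 0.538 and 9.30% ± 0.400 for Adcy9 (SD, n = 3). Shares of a sum move together, since a larger share of Adcy6 leaves less for the others. On its own, Adcy4 had a log2 change of -0.25 (SE 0.10, adjusted p = 0.247) and Adcy9, the most abundant of the other cyclases in CPM, one of -0.13 (SE 0.09, adjusted p = 0.527) by edgeR. Of the 6 cyclases tested beside Adcy5 and Adcy6, 0 were called in edgeR or DESeq2. In edgeR 2 of the 6 had an unadjusted p under 0.05, against 14.5% of all genes tested.

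**Figure D2:**
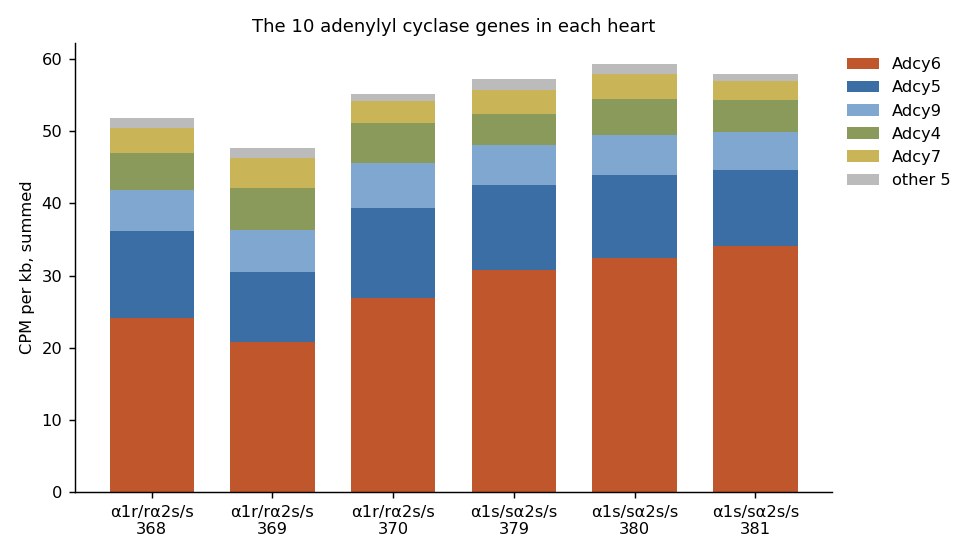
Summed level of the 10 adenylyl cyclase genes in each heart, in CPM per kb of gene length (y axis from 0). Each bar is 1 heart, labelled by genotype and mouse, and the colours are the genes, with the 5 least abundant drawn together in grey. The Adcy6 block is taller in the sensitive hearts, with 53.7% to 58.8% of the sum against 43.6% to 48.7%, while the Adcy5 block is of like height.

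Grk2 (ENSMUSG00000024858, chromosome 19, 4286001 to 4306222), the receptor kinase, was at 71.0, 70.8 and 67.5 CPM in resistant hearts and 71.3, 71.2 and 73.8 CPM in sensitive hearts. The genotypes did not overlap, but the gap between the closest hearts, 71.0 and 71.2 CPM, was below the SD of either genotype (1.95 and 1.47 CPM). The log2 change was 0.05 (SE 0.07, 95% interval -0.10 to 0.19, adjusted p = 0.807 by edgeR). Adcy6 and Grk2 were the 2 of 9 genes without overlap between genotypes, and 20.0% of all genes tested had none.

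Grk2 made up 45.1% ± 0.318 of the summed level per length of the 6 receptor kinase genes in resistant hearts and 42.6% ± 1.11 in sensitive hearts, with no overlap. The difference went with Grk5, a kinase held at the plasma membrane, which took 31.5% ± 2.62 and 37.0% ± 1.04 of the sum (SD, n = 3). Grk5 itself was at 35.9, 31.7 and 35.8 CPM in resistant and 44.1, 41.6 and 47.4 CPM in sensitive hearts. Each sensitive heart was above each resistant one. The log2 change of 0.36 (SE 0.09) had an adjusted p of 0.0542 by edgeR and 0.0171 in DESeq2. In edgeR it was 0.0335 with the robust prior and 0.00964 with no filter on low counts. With 1 heart left out, Grk5 was called in 0 of 6 edgeR fits, at an adjusted p from 0.0752 to 0.194.

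Among the phosphodiesterases, Pde3a (ENSMUSG00000041741, chromosome 6, 141249269 to 141507448), the form inhibited by cGMP and by drugs such as milrinone, was at 123, 108 and 142 CPM in resistant and 123, 127 and 143 CPM in sensitive hearts. The genotypes overlapped over most of their range. The log2 change was 0.07 (SE 0.09, 95% interval -0.13 to 0.27, adjusted p = 0.776 by edgeR). Pde3a shares 741 exon bases with the antisense gene Gm28523, which had 18 to 30 counts. Pde4b (ENSMUSG00000028525, chromosome 4, 102087543 to 102607259), a cAMP-specific form inhibited by rolipram, was at 34.4, 44.7 and 47.4 CPM in resistant and 42.1, 39.2 and 43.1 CPM in sensitive hearts, inside the resistant range. For Pde4b the log2 change was -0.02 (SE 0.11, 95% interval -0.25 to 0.20, adjusted p = 0.948 by edgeR).

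The ratio of Pde3a to Pde4b per length was 2.97, 2.01 and 2.48 in resistant hearts and 2.41, 2.68 and 2.74 in sensitive hearts, with overlap. Of the summed level per length of 18 phosphodiesterase genes, Pde3a took 19.1% ± 1.76 and 19.9% ± 1.84, and Pde4b 7.85% ± 1.20 and 7.62% ± 0.567, in resistant and sensitive hearts (SD, n = 3). Pde6d, whose product binds prenyl groups and is named for a subunit of the enzyme, was left out of this sum.

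**Figure D3:**
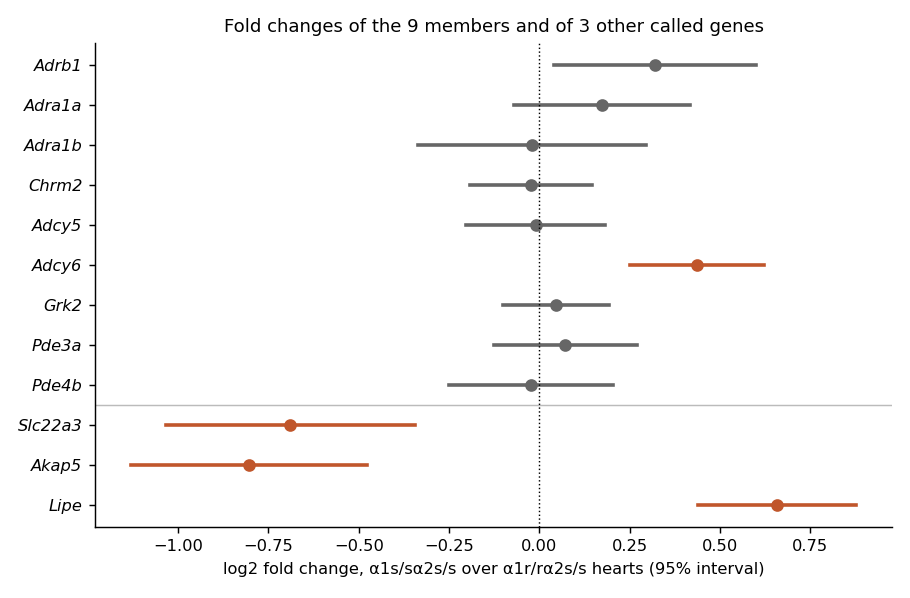
Log2 change of sensitive over resistant hearts (x axis) with its 95% interval from the edgeR fit of 3 hearts per genotype, for the 9 genes (above the line) and for 3 other genes of the pathway that passed the test (below). Red marks an adjusted p under 0.05. Of the 9 genes, Adcy6 is in red at 0.44, the interval of Adrb1 runs from 0.04 to 0.60, and the other intervals include 0.

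On levels per length, which set genes of unlike length on the same scale, the order of the 9 genes in resistant hearts was Adcy6 (24.0 ± 3.03 CPM per kb), Chrm2 (21.8 ± 0.657), Grk2 (15.6 ± 0.436), Adra1b (12.5 ± 1.18), Adcy5 (11.4 ± 1.48), Pde3a (9.76 ± 1.32), Adrb1 (8.07 ± 1.67), Pde4b (3.99 ± 0.647) and Adra1a (3.86 ± 0.374; SD, n = 3). Resistant hearts overlapped between Adcy6 and Chrm2, from Adra1b through Adcy5 and Pde3a to Adrb1, and between Pde4b and Adra1a. In sensitive hearts Adcy6 (32.4 ± 1.66 CPM per kb) stood above Chrm2 (21.4 ± 2.25) without overlap. The order was otherwise the same but for Adra1a (4.35 ± 0.728) and Pde4b (3.93 ± 0.190), which changed places and overlapped (SD, n = 3). Grk2 (16.1 ± 0.328 CPM per kb) overlapped with Adra1b (12.3 ± 3.48) in sensitive hearts and not in resistant ones. The level of Adrb1 per length rests on the shorter gene model named above. For the other genes the length is of all GENCODE M21 exon bases over all transcripts, 13 of them for Pde4b. The order between genes depends on these lengths, and which transcripts the hearts express was not tested.

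**Figure D4:**
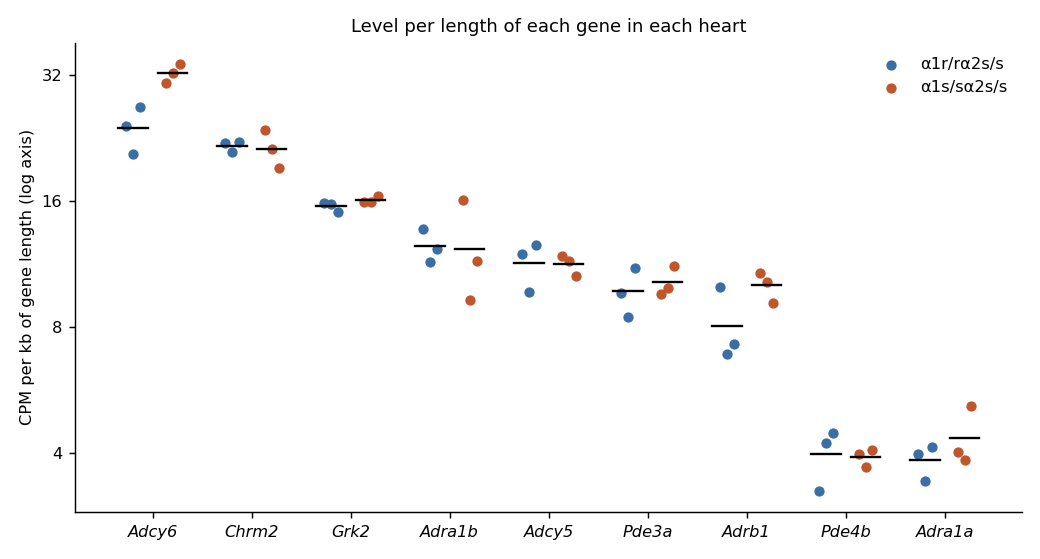
Level of the 9 genes in CPM per kb of gene length (log axis), ordered by their mean in resistant hearts. Points are hearts (blue resistant, red sensitive) and lines are the means of 3. Adcy6 and Chrm2 are the highest, and Pde4b and Adra1a are the lowest, at most 5.19 CPM per kb in each heart.

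To place the 9 genes in their pathway, 149 other genes were followed in 15 lists written from general knowledge, of which 133 could be tested. Of these, Lipe was higher and Akap5 and Slc22a3 were lower in sensitive hearts at an adjusted p under 0.05 by edgeR, which is 3 of 133, and 8 were called in DESeq2. At an unadjusted p under 0.05 by edgeR there were 29, of which 11 were higher and 18 lower. Over the 14866 genes tested, edgeR called 1.44% and gave 14.5% an unadjusted p under 0.05, and DESeq2 called 3.65% of 11038. These shares are the background for the counts of each list below. The median log2 change of the 133 was -0.03, with 53 genes above 0 and 80 below. Over all genes tested it was -0.01, with 7202 above 0 and 7664 below.

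Lipe, hormone-sensitive lipase, a lipolytic enzyme that protein kinase A activates, was at 39.7, 37.7 and 29.6 CPM in resistant hearts and 60.4, 53.3 and 55.3 CPM in sensitive hearts. All sensitive hearts lay above all resistant hearts. The log2 change was 0.66 (SE 0.10, adjusted p = 0.00546 by edgeR), and it passed the threshold in all 6 leave-one-out fits. The adipocyte list was the one whose summed level did not overlap, at 0.904 to 1.77 CPM in resistant and 1.84 to 3.82 CPM in sensitive hearts. Of its 6 genes 3 could be tested and 0 were called in edgeR or DESeq2, with 1 at an unadjusted p under 0.05 in edgeR, while Lep and Ucp1 had at most 2 counts in any heart. Adipoq, the adiponectin gene, had 1 to 25 counts where Lipe had 589 to 1216, and the part of adipocytes in the Lipe result was not tested. Lipe shares 918 exon bases with the antisense gene 4732471J01Rik, which had 16 to 26 counts.

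Lipe was 1 of 12 protein kinase A substrates tested, and the list had a median log2 change of 0.11 with 8 genes above 0. Akap5, which anchors protein kinase A and calcineurin near β receptors and calcium channels, was at 14.1, 14.7 and 14.5 CPM in resistant hearts and 9.63, 8.89 and 6.28 CPM in sensitive hearts. The sensitive hearts were lower without overlap, with a log2 change of -0.80 (SE 0.15, adjusted p = 0.0198 by edgeR). The adjusted p was 0.0569 without resistant mouse 368 and 0.0567 without resistant mouse 369. It was 1 of 9 anchoring proteins tested, 6 of which were below 0 and whose median was -0.03, and 2 of them had an unadjusted p under 0.05 in edgeR and were called in DESeq2. The other was Akap12, named after its values were seen, at 63.4 ± 3.07 and 49.8 ± 7.21 CPM (SD, n = 3), a log2 change of -0.35 with an adjusted p of 0.103 in edgeR and 0.0436 in DESeq2. Neither the 9 subunits and inhibitors of protein kinase A nor the 17 other phosphodiesterase genes (Pde6d included) held a gene called in edgeR (0 of 9 and 0 of 17, with 1 and 2 at an unadjusted p under 0.05, and 0 in DESeq2). Prkar1a, the most abundant of these subunits, had a log2 change of -0.16 (adjusted p = 0.337). Among the phosphodiesterases Pde1c, a form activated by calcium and calmodulin, had one of -0.01 (adjusted p = 0.960), and Pde8a, a cAMP-specific form of high affinity, one of 0.24 (adjusted p = 0.233).

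Slc22a3, a transporter that clears noradrenaline outside neurons, was at 11.6, 9.89 and 10.7 CPM in resistant and 7.65, 6.89 and 5.34 CPM in sensitive hearts. Its log2 change was -0.69 (SE 0.16, adjusted p = 0.0491 by edgeR), and the call was lost in all 6 leave-one-out fits, at an adjusted p from 0.0558 to 0.190. Slc22a3 shares 420 exon bases with Plg, which had at most 2 counts in any heart. Of the 15 genes for making, taking up and degrading the transmitters 10 were tested, with 5 above 0 and 5 below. Th, the rate-limiting enzyme on the way to noradrenaline, and Chat, which makes acetylcholine, had 0 counts in every heart, which allows up to 3 counts in a library. Dbh, which makes noradrenaline from dopamine, was named after its values were seen and had 40, 65 and 55 counts in resistant and 44, 27 and 32 counts in sensitive hearts (log2 change -0.56, adjusted p = 0.434 by edgeR).

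Of the other receptors, 3 adrenergic and 1 muscarinic gene could be tested, with 0 called in edgeR or DESeq2 and 0 at an unadjusted p under 0.05. Adra2b, an α2 receptor gene with 7 to 29 counts, had a log2 change of -0.59 (adjusted p = 0.600 by edgeR), and Chrm3, the M3 receptor gene with 18 to 24 counts, one of 0.24 (adjusted p = 0.828). Of 18 G protein subunits tested, 0 were called in edgeR or DESeq2. In edgeR 4 of the 18 had an unadjusted p under 0.05, against 14.5% of all genes tested. Gnai2, the inhibitory subunit highest in CPM, was at 191 ± 12.7 and 186 ± 7.07 CPM (SD, n = 3). Gnb4 was at 24.3 ± 1.88 and 19.7 ± 0.636 CPM (SD, n = 3), with a log2 change of -0.30 (adjusted p = 0.156). Kcnj3 and Kcnj5, the subunits of the potassium channel that the M2 receptor opens, had log2 changes of 0.07 and -0.01 (adjusted p = 0.785 and 0.952).

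Of 8 regulators of G protein signalling tested, 0 were called in edgeR and 1 in DESeq2, and 1 had an unadjusted p under 0.05 in edgeR. That gene was Rgs2, which speeds the turning off of the G protein of the α1 receptors. It was at 30.7, 41.5 and 21.8 CPM in resistant and 44.8, 43.9 and 47.3 CPM in sensitive hearts. The resistant hearts were spread over a wide range below the sensitive ones. The adjusted p of its log2 change of 0.53 (SE 0.16) was 0.125 in edgeR and 0.0300 in DESeq2. In edgeR it was 0.00594 without resistant mouse 369, 7.78e-06 with no filter and 0.368 with the robust prior. With 1 heart left out, Rgs2 was called in 1 of 6 edgeR fits, with an adjusted p up to 0.271. Rgs5, which is also a pericyte marker, was at 750 ± 37.2 and 749 ± 51.0 CPM (SD, n = 3). Among the effectors of the α1 receptors 0 of 12 were called in edgeR or DESeq2. In edgeR 3 of the 12 had an unadjusted p under 0.05, against 14.5% of all genes tested. The median of these effectors was -0.13, with 10 of 12 below 0, against -0.01 and 7664 of 14866 over all genes tested. Plcb4 and Plcb1, phospholipase C genes, had log2 changes of -0.01 and -0.35 (adjusted p = 0.959 and 0.184).

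Among the other proteins that bind cAMP, 0 of 8 were called in edgeR and 1 in DESeq2. In edgeR 2 of the 8 had an unadjusted p under 0.05, against 14.5% of all genes tested. Popdc3, a membrane protein of the Popeye family, was at 15.3, 18.4 and 20.3 CPM in resistant and 21.9, 30.6 and 26.5 CPM in sensitive hearts, without overlap. Its log2 change of 0.54 (SE 0.13) had an adjusted p of 0.0561 in edgeR and 0.0136 in DESeq2. In edgeR it was 0.0298 without sensitive mouse 379, 0.0350 with the robust prior and 0.000248 with no filter. With 1 heart left out, Popdc3 was called in 1 of 6 edgeR fits, with an adjusted p up to 0.218. Popdc2 of the same family had a log2 change of 0.03 (adjusted p = 0.896). A further list of 12 held genes that cAMP drives through the transcription factor CREB, with Creb1 itself and its coactivators Crtc1, Crtc2 and Crtc3. Of the 12, 0 were called in edgeR or DESeq2. In edgeR 5 had an unadjusted p under 0.05, 3 higher and 2 lower, against 14.5% of all genes tested. The median log2 change of the list was -0.08, with 5 genes above 0 and 7 below. Nr4a3, a nuclear receptor gene that cAMP drives, had 61, 152 and 149 counts in resistant and 246, 170 and 184 counts in sensitive hearts. Its log2 change was 0.80 (SE 0.26, adjusted p = 0.161 by edgeR). Without resistant mouse 368, the lowest heart, it was 0.48. With no filter on low counts edgeR gave Nr4a3 an adjusted p of 0.000367. The same fit also called Per1, a clock gene of the list named after its values were seen. Creb1 and Crtc3, also named after their values were seen, were lower in each sensitive heart than in each resistant heart. Creb1 was at 35.6, 36.8 and 37.0 CPM in resistant and 32.5, 30.4 and 31.4 CPM in sensitive hearts. Ppargc1a, a coactivator of mitochondrial genes, was at 108 ± 12.8 and 103 ± 7.19 CPM (SD, n = 3).

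**Figure D5:**
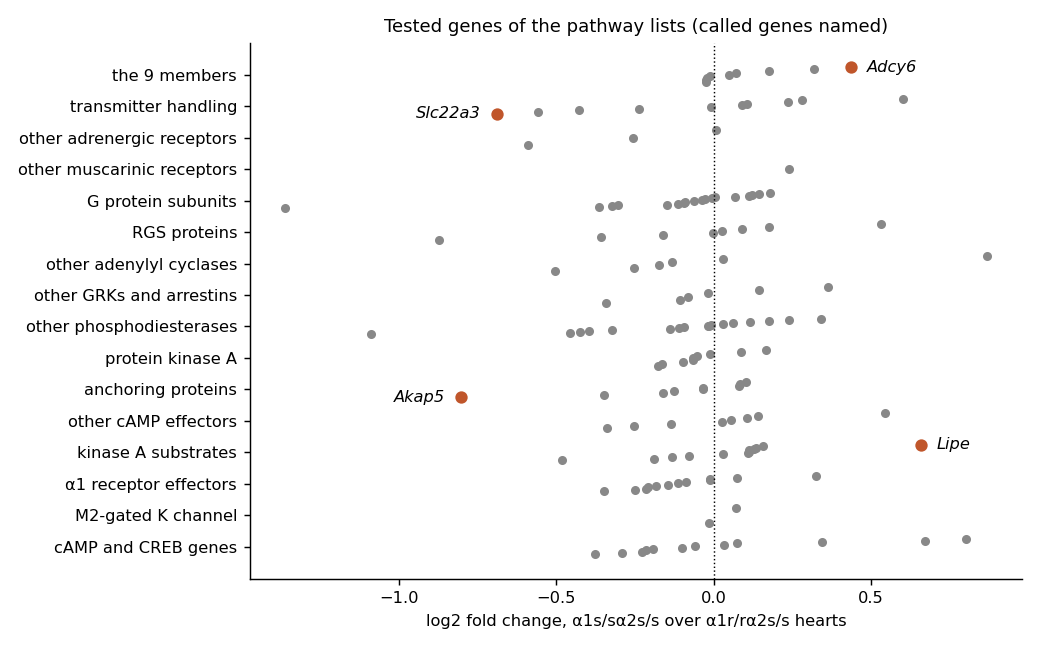
Log2 change of sensitive over resistant hearts (x axis) of each tested gene in the 9-gene group and the 15 pathway lists (rows), from 3 hearts per genotype. Larger red points with names have an adjusted p under 0.05 in edgeR. These are Adcy6 at 0.44, Lipe at 0.66, Akap5 at -0.80 and Slc22a3 at -0.69, and the other genes lie on both sides of 0.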

How the data were processed

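RNA was sequenced from whole hearts of 6 mice, 3 per genotype, and genotypes were taken from the labels. The authors deposited counts per gene as whole reads without normalization. The submitters' processing notes name fastp, STAR, featureCounts and mm10, and versions and the strand setting are not given in the sources used here. A second deposited table holds the authors' own comparison (mean, log2 fold change, error, statistic and p-values) and was not used.

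Counts were analysed with edgeR 4.0.16 in R 4.3.3 (TMM, filterByExpr with a minimum count of 10 and a minimum total of 15, quasi-likelihood test, Benjamini-Hochberg adjustment over the 14866 genes tested, threshold 0.05). Standard errors (SE) are the absolute log2 change over the root of F. CPM were scaled by TMM, and levels per length used the gene length of the count table. The biological coefficient of variation was 11.1%. P-values set the difference between genotypes against the spread between mice, which the fit estimates in part from other genes. Ratios, shares and levels per length were given with no test.

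The 9 genes and the lists were chosen with earlier results of these data known. All 9 were named, as were, of each pathway list, each gene with an adjusted p under 0.05 or, where there was none, the gene with the highest mean CPM and that with the smallest p. Some single genes are not reported here. Overlapping genes were read from GENCODE M21 and promoters from RefSeq. The alternatives were DESeq2 1.42.0, scaling by RLE or by upper quartiles, no filter or 10 counts or more in every heart, removal of mitochondrial and globin genes, the robust prior of edgeR, a threshold of 0.1, and removal of each heart in turn.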

Additional observations from a re-analysis of the deposited data

How the results depend on the processing

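Adcy6 was the called gene among the 9 under DESeq2, scaling by RLE or by upper quartiles, no filter, 10 counts or more in every heart, removal of mitochondrial and globin genes, with the robust prior and at an adjusted p under 0.1. With 1 heart left out, the number called was 0 to 1 (0 in edgeR without mouse 368, 369, 380 or 381, where 1 to 2 of the 9 had an unadjusted p under 0.05). Over all genes, 214 were called in edgeR, 403 in DESeq2 (201 shared), 618 with no filter, 402 at an adjusted p under 0.1, and 80 to 158 with 1 heart left out. The lowest numbers were 80 without resistant mouse 368 and 91 without 369, against 135, 123 and 102 without sensitive mice 379, 380 and 381, and 158 without resistant mouse 370. For the pathway lists, whose recalculation was chosen after seeing the data, 3 genes were called in edgeR, 8 in DESeq2, 12 with no filter, 5 with the robust prior, 6 at an adjusted p under 0.1, and 1 to 3 with 1 heart left out, the 1 being without resistant mouse 368. The cause of these changes was not tested, and leaving out a heart also lowers the number of hearts. The direction of Adcy6, Adrb1, Adra1a and Grk2 was the same in each alternative run, while the small log2 changes of Adra1b, Chrm2, Adcy5, Pde3a and Pde4b took either sign. No paired analysis was possible because mouse numbers differ between the genotypes and no label pairs the hearts. With 3 hearts per genotype, the 95% intervals of the uncalled genes still allow changes such as 0.60 in log2 for Adrb1.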
